A study of Mus with 6 samples.

Results

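The genes described here are 8 targets of the mitogen-activated protein (MAP) kinase pathway, most of which encode proteins that act back on it: Dusp1, Dusp4, Dusp5, Dusp6, Spry2, Spry4, Etv5 and Trib1. They were found by symbol in a deposited table of 54532 mouse genes, and each of the 8 matched 1 row. RNA sequencing had been done on 6 libraries of brain tissue labelled as basolateral amygdala, an almond-shaped forebrain region studied for its part in fear memory. The KO group held 3 samples labelled CNTNAP4-KO and the WT group held 3 labelled wild type, and all 6 were labelled male. The labels give no age, strain background, deleted part of the gene or treatment, although the series title names Lactobacillus reuteri, a gut bacterium. Cntnap4 encodes a cell-surface adhesion protein of neurons related to the neurexins, and the comparison asks how transcripts of these 8 genes differ between KO and WT tissue.

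Growth factors and neuronal activity switch on a relay of kinases, from Ras through Raf and MEK to the extracellular signal-regulated kinase ERK. Active ERK enters the nucleus and induces genes, and among the first of them are genes whose products damp the relay. The dual-specificity phosphatases encoded by the Dusp genes remove the activating phosphates from MAP kinases, and Sprouty proteins act higher up, between receptor and Raf. Because these genes follow the activity of the pathway, their transcripts are widely used as a readout of it, in brain as elsewhere.

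The libraries held 17647556 to 20813211 reads in genes, recovered as whole reads from the deposited FPKM values (fragments per kilobase, scaled to depth). The scaling totals that those values imply were 0.993, 0.969 and 1.00 times the reads in genes in KO replicates 1 to 3. In WT replicates 1 to 3 they were 1.00, 1.01 and 1.04 times. A lower multiple gives a higher FPKM for the same share of reads. The 8 genes had 70 to 1292 reads per library, which gives 95% Poisson intervals with half-widths between 5.49% and 24.2% of the value, covering counting error alone. Cntnap4 measured 1.61, 1.00 and 1.48 FPKM in KO replicates 1 to 3, against 2.03, 3.59 and 4.91 FPKM in WT replicates 1 to 3. The library labelled KO replicate 1 went against its sex label, with Xist at 43.0 FPKM and 0 reads on 4 Y-linked genes, and values without it are given below. Markers of the dissected tissue were uneven. Slc17a7, the vesicular glutamate transporter of amygdala and cortical excitatory neurons, measured 21.4, 94.3 and 19.1 FPKM in KO and 5.69, 5.37 and 6.42 FPKM in WT libraries. The hypothalamic peptide gene Avp measured 894, 2.20 and 325 FPKM in KO replicates 1 to 3 and 783, 695 and 350 FPKM in WT replicates 1 to 3, so KO replicate 2 stood apart, and values without it are given as well. Leaving out KO replicate 2 does not even out the markers, since Slc17a7 in KO replicates 1 and 3 was also above every WT library. In tissue RNA, fewer cells of a type and less RNA per cell cannot be told apart.

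Etv5, Dusp5, Dusp1 and Spry2 measured higher in KO, with the lowest of the 3 KO libraries above the highest WT library for each of these 4 genes. Spry4 lay the other way by a small margin, with its highest KO library below its lowest WT library, and Dusp4, Dusp6 and Trib1 overlapped between the groups. Differences were tested with limma on log2(FPKM + 0.5) over the 16155 genes that averaged 0.5 FPKM or more across libraries, which included all 8. None of the 8 passed an adjusted p of 0.05, a threshold that 0.0124% of all tested genes passed. At an unadjusted p under 0.05, 4 of the 8 were higher in KO, against 8.36% of all tested genes, and 0 were lower, against 6.85% of all tested genes. The values of KO and WT did not overlap, with KO higher, for 4 of the 8 genes and for 11.8% of all tested genes, and with KO lower for 1 of the 8 and for 10.8% of all tested genes. The median log2 difference, KO minus WT, was 0.17 over the 8 genes and 0.01 over all tested genes. The 8 genes were chosen with earlier results of these data known. Their counts beside those shares therefore describe the list and do not test it. These counts lean on the scaling: with every library rescaled to the same FPKM total, 2 of the 8 (Etv5 and Dusp5) were higher without overlap and at an unadjusted p under 0.05. Under that scaling 6.07% of all genes were higher and 13.9% lower without overlap, and 4.09% were higher at an unadjusted p under 0.05. With KO replicate 1 or KO replicate 2 left out, 17.3% and 17.2% of all genes were higher without overlap. In the same settings, 15.9% and 16.2% of all genes were lower without overlap. Of the 8, the same 4 genes as in the reported fit stayed higher and Spry4 lower without overlap in both. The number higher at an unadjusted p under 0.05 was 3 without KO replicate 1 (Dusp5, Spry2 and Etv5), where 7.56% of all genes were. It was 2 (Dusp5 and Etv5) without KO replicate 2, WT replicate 1 or WT replicate 2, where 7.28%, 6.81% and 5.34% of all genes were.

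**Figure D1:**
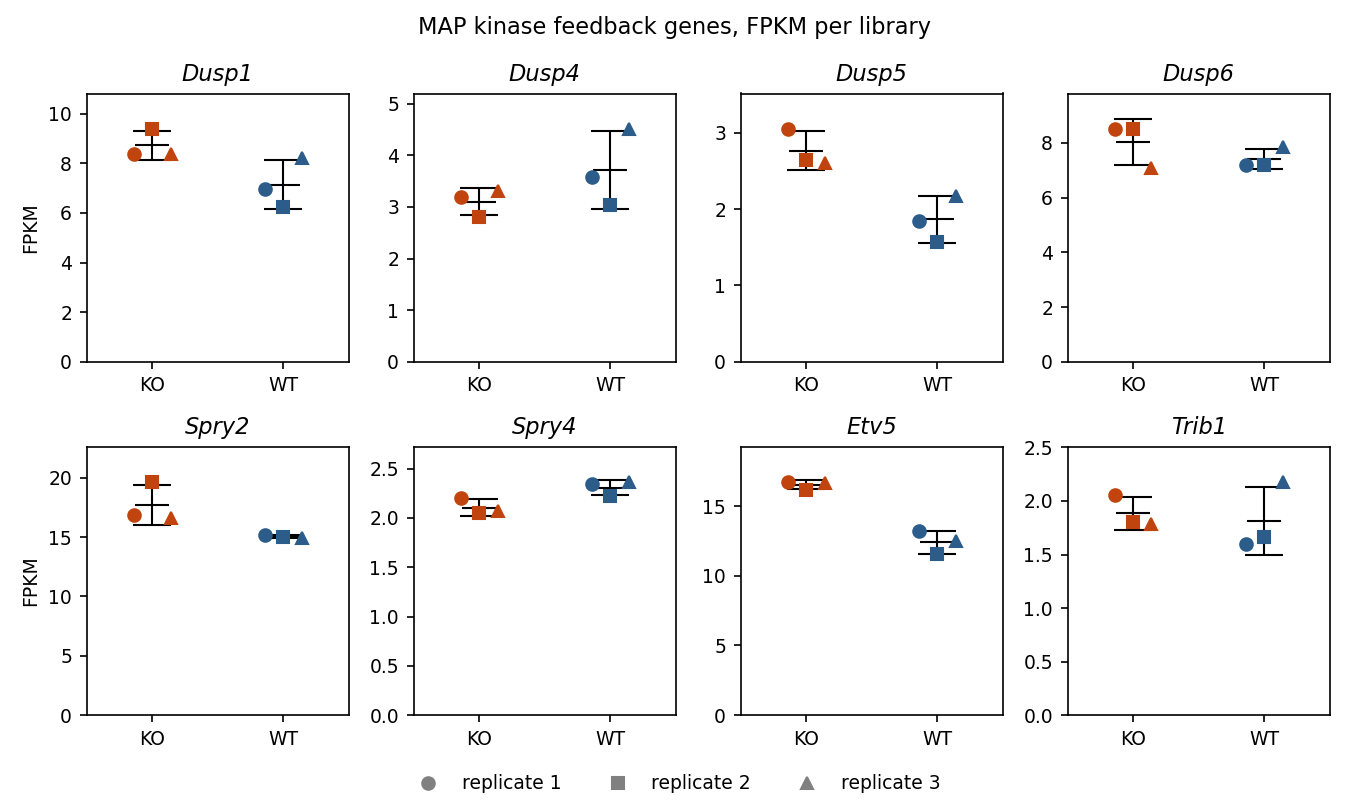
FPKM of each of the 8 genes in KO libraries (left, red) and WT libraries (right, blue), with the vertical axis starting at 0. Symbols mark the replicate number, which the reported fit did not take as a pairing across groups, and black bars show the mean and SD of 3 libraries. Etv5, Dusp5, Dusp1 and Spry2 are higher in each KO library than in any WT library, Spry4 is lower, and Dusp4, Dusp6 and Trib1 overlap.

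Etv5 showed the smallest p of the 8. It encodes an ETS transcription factor of the PEA3 subfamily, an activator induced by fibroblast growth factor and ERK signalling, so it is a readout of the pathway and not itself an inhibitor. The gene (ENSMUSG00000013089, chromosome 16, 22381309 to 22439719, minus strand, GRCm38) measured 16.7, 16.2 and 16.7 FPKM in KO replicates 1 to 3, against 13.2, 11.6 and 12.5 FPKM in WT replicates 1 to 3. The KO libraries lay close together and all above WT. The lowest KO value, 16.2 FPKM, had a Poisson interval of 15.3 to 17.1 FPKM, and the highest WT value, 13.2 FPKM, one of 12.4 to 14.1 FPKM, so the counting intervals of the nearest libraries did not overlap. The mean was 16.5 ± 0.317 FPKM in KO and 12.4 ± 0.827 FPKM in WT (SD, n = 3 each), a ratio of 1.33. The log2 difference was 0.40 ± 0.07 (SE), with a 95% interval of 0.23 to 0.57, limma unadjusted p = 0.000906 and adjusted p = 0.187. By unadjusted p it ranked 69 of the 16155 tested genes. With KO replicate 1 left out the difference was 0.39, with KO replicate 2 left out it was 0.42, and it lay between 0.34 and 0.44 over 18 alternative settings, with an unadjusted p under 0.05 in all 18.

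The other PEA3 factors measured on the opposite side. Etv1 measured 4.86, 3.95 and 4.80 FPKM in KO libraries and 5.63, 5.76 and 5.22 FPKM in WT libraries, a log2 difference of -0.27 ± 0.10 (SE, limma adjusted p = 0.288). Etv4 measured 2.06, 2.85 and 2.53 FPKM in KO and 3.49, 2.97 and 2.95 FPKM in WT libraries, at -0.30 (limma adjusted p = 0.340). Neither overlapped between the groups, and neither passed the adjusted test. Etv5 therefore made up 70.8%, 70.4% and 69.4% of the summed FPKM of the 3 factors in KO libraries, against 59.1%, 57.0% and 60.4% in WT libraries. A share within a library does not depend on how the library was scaled, and the share of Etv5 did not overlap between the groups. The summed level of the subfamily was 23.5 ± 0.525 FPKM in KO and 21.1 ± 1.09 FPKM in WT.

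Dusp5 had the highest log2 difference of the 8. It encodes a nuclear phosphatase that acts on ERK and anchors it in the nucleus. The gene (ENSMUSG00000034765, chromosome 19, 53529109 to 53542431, plus strand) measured 3.05, 2.64 and 2.60 FPKM in KO replicates 1 to 3, against 1.84, 1.57 and 2.18 FPKM in WT replicates 1 to 3. The groups did not overlap, although the nearest libraries, KO replicate 3 (Poisson interval 2.15 to 3.13 FPKM) and WT replicate 3 (1.80 to 2.61 FPKM), overlapped in counting error. These values rest on 142, 118 and 114 reads in KO and 84, 70 and 117 reads in WT. The mean was 2.76 ± 0.251 FPKM in KO and 1.86 ± 0.302 FPKM in WT (SD, n = 3 each), a ratio of 1.48. It differed by a log2 of 0.47 ± 0.13 (SE), with a 95% interval of 0.17 to 0.77, limma unadjusted p = 0.00765 and adjusted p = 0.219. It was 0.41 without KO replicate 1, 0.50 without KO replicate 2, and between 0.38 and 0.56 over 17 alternative settings.

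Dusp1 encodes MKP-1, a nuclear phosphatase and classic immediate early gene product that acts on p38, JNK and ERK. The gene (ENSMUSG00000024190, chromosome 17, 26505590 to 26508519, minus strand) measured 8.38, 9.40 and 8.39 FPKM in KO libraries and 6.95, 6.25 and 8.22 FPKM in WT libraries. The groups were separate by a narrow gap, between 8.38 FPKM in KO replicate 1 and 8.22 FPKM in WT replicate 3. Counting intervals of those 2 libraries overlapped, at 7.60 to 9.21 FPKM and 7.50 to 8.99 FPKM. On the log2 scale KO minus WT was 0.28 ± 0.11 (SE), with a 95% interval of 0.02 to 0.54 and limma adjusted p = 0.302. The values of KO and WT overlapped after rescaling to an equal FPKM sum, and also as reads per total of the tested genes. Leaving out KO replicate 1 gave 0.30, and leaving out KO replicate 2 gave 0.23. The limma unadjusted p was under 0.05 in 9 of 18 alternative settings.

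Dusp4, the other inducible nuclear phosphatase of the group (MKP-2, which acts on ERK and JNK), lay on the lower side. The gene (ENSMUSG00000031530, chromosome 8, 34807297 to 34819894, plus strand) measured 3.18, 2.80 and 3.32 FPKM in KO libraries and 3.58, 3.04 and 4.52 FPKM in WT libraries. The groups overlapped, and WT replicate 3 stood highest. The log2 difference was -0.21 ± 0.14 (SE, limma adjusted p = 0.504), with a 95% interval of -0.55 to 0.12. It was -0.08 without WT replicate 3 and -0.33 without WT replicate 2, so its size depended most on these WT libraries. Without KO replicate 1 it was -0.23, and without KO replicate 2 it was -0.15.

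Dusp6 encodes MKP-3, the cytoplasmic phosphatase selective for ERK and a widely used readout of fibroblast growth factor signalling. The gene (ENSMUSG00000019960, chromosome 10, 99263231 to 99267489, plus strand) measured 8.49, 8.52 and 7.06 FPKM in KO libraries and 7.18, 7.19 and 7.84 FPKM in WT libraries. KO replicates 1 and 2 were above all WT libraries, and KO replicate 3 was below them. KO minus WT came to a log2 of 0.11 ± 0.09 (SE, limma adjusted p = 0.624), with a 95% interval of -0.12 to 0.33, which does not show that the groups were alike. Its value was 0.19 without KO replicate 3, and 0.06 when either of the other KO libraries was left out. Its cytoplasmic relative Dusp7 measured 14.7, 18.0 and 14.8 FPKM in KO and 14.7, 14.7 and 13.4 FPKM in WT libraries.

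Among the Sprouty genes, Spry2 (ENSMUSG00000022114, chromosome 14, 105891947 to 105896819, minus strand) had the highest level of the 8 by its mean in each group. It measured 16.9, 19.7 and 16.6 FPKM in KO libraries and 15.1, 15.0 and 14.9 FPKM in WT libraries. The WT libraries were nearly level, and KO replicate 2 stood above the other KO libraries. The mean was 17.7 ± 1.71 FPKM in KO and 15.0 ± 0.120 FPKM in WT (SD, n = 3 each). The log2 difference was 0.23 ± 0.08 (SE), with a 95% interval of 0.03 to 0.42 and limma adjusted p = 0.286. With KO replicate 2 left out it was 0.15, with KO replicate 1 left out it was 0.26, and the groups overlapped after rescaling to an equal FPKM sum. The limma unadjusted p was under 0.05 in 10 of 18 alternative settings.

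Spry4 (ENSMUSG00000024427, chromosome 18, 38586268 to 38601268, minus strand), which also restrains signalling from receptor tyrosine kinases, measured 2.20, 2.05 and 2.07 FPKM in KO libraries and 2.34, 2.22 and 2.37 FPKM in WT libraries. The KO values were all lower, with a gap between 2.20 FPKM in KO replicate 1 and 2.22 FPKM in WT replicate 2 that is far smaller than their counting error. The fitted log2 difference was -0.11 ± 0.09 (SE, limma adjusted p = 0.607), with a 95% interval of -0.33 to 0.11. It was -0.18 by voom, limma's method for counts, on the recovered reads. With KO replicate 1 left out it was -0.13, and with KO replicate 2 left out it was -0.09. The related gene Spry1 measured 3.49, 2.09 and 2.85 FPKM in KO and 2.89, 2.35 and 3.25 FPKM in WT libraries, and Spry3 had a log2 difference of 0.04.

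Trib1 encodes a Tribbles pseudokinase that binds MEK and brings the ubiquitin ligase COP1 to its targets. The gene (ENSMUSG00000032501, chromosome 15, 59648350 to 59657099, plus strand) measured 2.06, 1.80 and 1.79 FPKM in KO libraries and 1.60, 1.66 and 2.18 FPKM in WT libraries. The groups overlapped, with WT replicate 3 the highest of all. On the log2 scale KO minus WT was 0.05 ± 0.13 (SE, limma adjusted p = 0.885), with a 95% interval of -0.26 to 0.36. It was 0.16 without WT replicate 3 and close to 0.08 and 0.07 with KO replicate 3 or KO replicate 2 left out. It came to 0.01 without WT replicate 2, -0.016 without WT replicate 1 and -0.0020 without KO replicate 1.

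The order of the levels was nearly fixed across libraries. FPKM is a level per length of gene, so it can be set side by side between genes. Of the 28 pairs among the 8 genes, 24 stood in the same order in all 6 libraries. Spry2 and Etv5 were the top pair and were not separate in KO, where Etv5 was above Spry2 in KO replicate 3. Dusp1 and Dusp6 came next and changed places among libraries of both groups. Dusp4, Dusp5, Spry4 and Trib1 followed at lower levels. Of the 28 pairs, 1 had opposite orders in the groups: Dusp5 was above Spry4 in all 3 KO libraries and below it in all 3 WT libraries.

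Ratios between related genes within a library do not depend on library scaling. The pairs below were chosen after the values were seen, so their ratios are descriptions. Dusp5 stood at 0.959, 0.941 and 0.785 times Dusp4 in KO libraries, against 0.514, 0.517 and 0.482 times in WT libraries. Dusp1 stood at 2.63, 3.35 and 2.53 times Dusp4 in KO, against 1.94, 2.05 and 1.82 times in WT libraries. In both ratios every KO library was above every WT library, with the WT libraries close together. Spry2 stood at 7.66, 9.61 and 8.02 times Spry4 in KO, against 6.47, 6.77 and 6.30 times in WT libraries. The summed FPKM of the nuclear phosphatase genes Dusp1, Dusp2, Dusp4 and Dusp5 was 15.1, 15.4 and 14.7 in KO libraries and 12.9, 11.1 and 15.5 in WT libraries. The sum thus overlapped between the groups, whereas the ratios of Dusp5 and Dusp1 to Dusp4 did not. Dusp4 made up 21.1%, 18.2% and 22.6% of that sum in KO libraries and 27.8%, 27.3% and 29.2% in WT libraries.

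**Figure D2:**
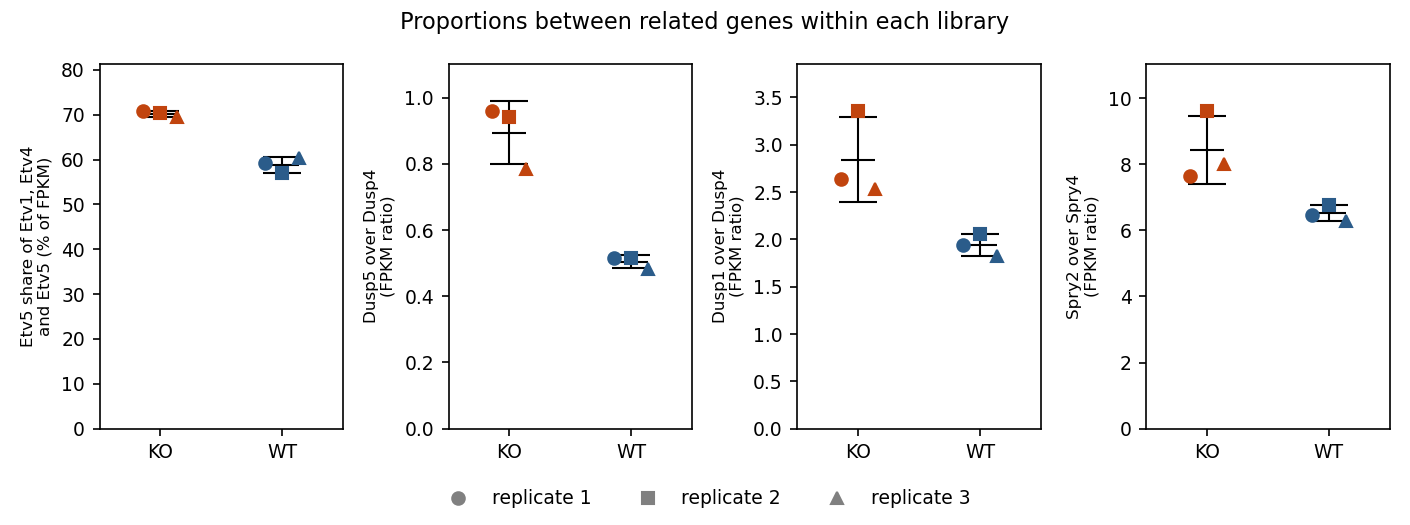
Proportions between related genes in KO libraries (left, red) and WT libraries (right, blue), each computed within 1 library, with vertical axes from 0 and black bars for the mean and SD of 3 libraries. Etv5 made up 70.2 ± 0.686% of the 3 PEA3 transcripts in KO and 58.8 ± 1.74% in WT, and the other 3 panels show the FPKM ratios of Dusp5 to Dusp4, Dusp1 to Dusp4 and Spry2 to Spry4. In none of the 4 panels do the groups overlap. For the Etv5 share and for Spry2 over Spry4 this had to follow from the values of the single genes.

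A list of 22 related feedback genes, of which 20 were tested, did not lean to one side. Its median log2 difference was 0.04, and 0 passed the adjusted test. At an unadjusted p under 0.05, 2 genes were higher and 2 lower, against 8.36% and 6.85% of all tested genes. This list and those below were chosen with earlier results of these data known, so their counts are descriptions. On the higher side, Dusp14, a small dual-specificity phosphatase, measured 10.5, 17.6 and 12.4 FPKM in KO libraries and 8.86, 7.35 and 8.04 FPKM in WT libraries (log2 0.67 ± 0.18 SE, limma adjusted p = 0.218). Errfi1, which encodes the inducible inhibitor of the epidermal growth factor receptor MIG6, measured 11.9, 8.78 and 10.4 FPKM in KO and 7.35, 8.03 and 8.66 FPKM in WT libraries (log2 0.34, limma adjusted p = 0.275). Spred2, a Sprouty-related inhibitor of Raf, had a log2 difference of 0.18 with overlapping groups. On the lower side, Dusp16, a phosphatase for JNK and p38, measured 1.79, 1.72 and 1.89 FPKM in KO and 2.45, 2.13 and 2.52 FPKM in WT libraries (log2 -0.32, limma adjusted p = 0.259). Dusp10, which has the same substrates, had a log2 difference of -0.24, and its KO and WT values did not overlap. The remaining tested genes with differences near 0 included Spred1 (0.00), Spry1 (-0.02) and Dusp3 (0.05). Dusp2 and Dusp9 were below the level tested, with at most 0.551 and 0.270 FPKM in any library.

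**Figure D3:**
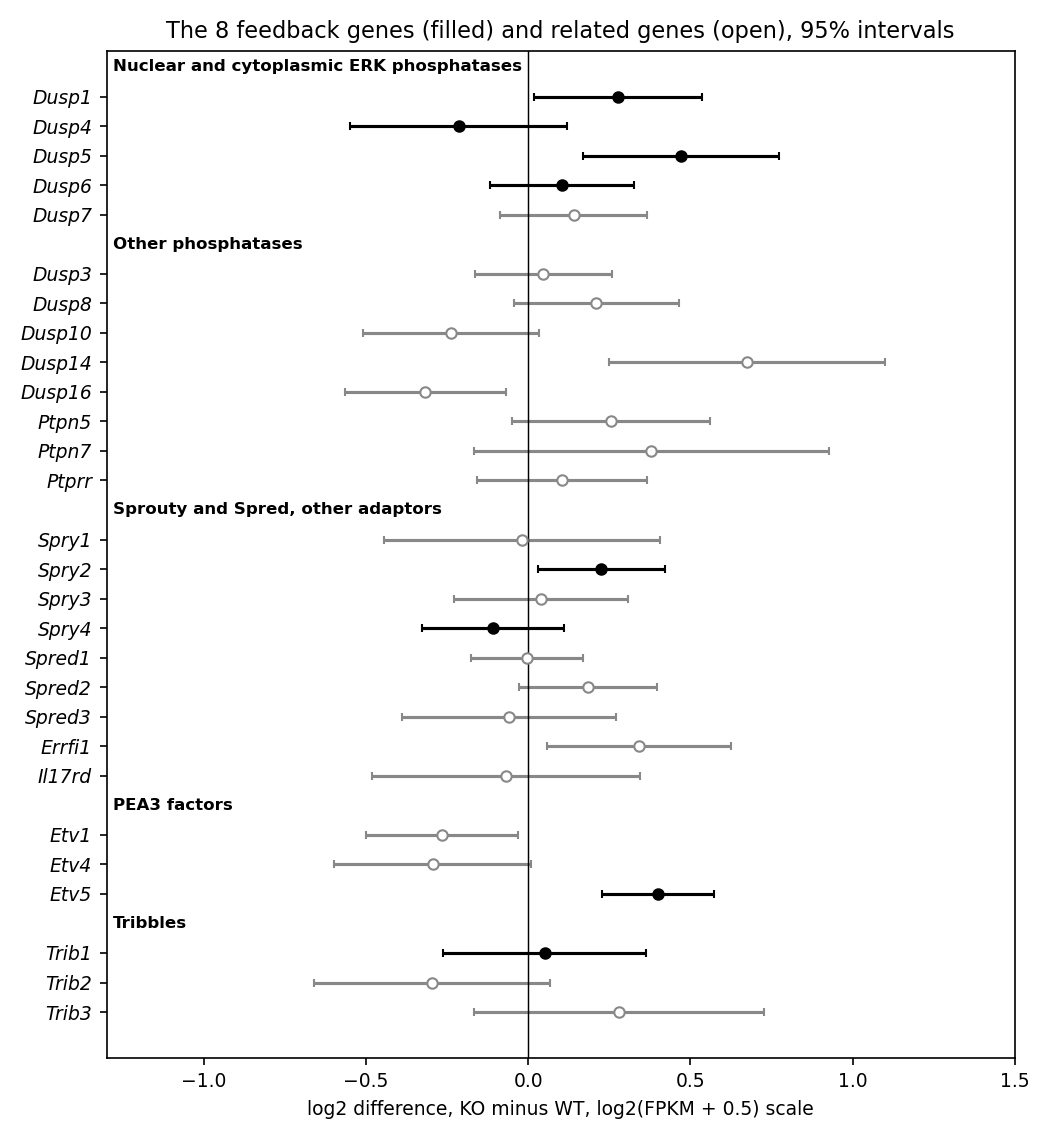
Log2 difference, KO minus WT, of log2(FPKM + 0.5) for the 8 feedback genes (filled black) and 20 related genes (open grey), grouped by family, with 95% intervals from limma that are not adjusted for the number of genes. The intervals of Etv5, Dusp5, Dusp1 and Spry2 lie above 0, those of Dusp4, Dusp6, Spry4 and Trib1 include 0, and Etv1 and Etv4 lie opposite to Etv5.

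Further up the pathway the differences were smaller, and no listed gene passed the adjusted test. Of 22 tested growth factor genes, 1 was higher and 1 lower at an unadjusted p under 0.05, with a median log2 difference of 0.05. Of all tested genes, 8.36% were higher and 6.85% lower at that p. Fgf13, which encodes an intracellular member of the fibroblast growth factor family, measured 22.5 ± 3.09 FPKM in KO and 17.9 ± 1.21 FPKM in WT. Bdnf, the brain-derived neurotrophic factor gene, measured 0.847, 1.06 and 0.835 FPKM in KO libraries and 0.663, 0.617 and 0.562 FPKM in WT libraries, without overlap (limma adjusted p = 0.330). Nrg1, encoding the ErbB ligand neuregulin, measured 1.14, 1.28 and 1.41 FPKM in KO and 1.83, 1.88 and 1.66 FPKM in WT libraries (log2 -0.37, limma adjusted p = 0.246). Among 19 tested receptor tyrosine kinase genes the median was -0.03. At an unadjusted p under 0.05, 0 were higher and 2 lower, against 8.36% and 6.85% of all tested genes. Erbb3, a neuregulin receptor subunit also made by oligodendrocytes, measured 2.33 ± 0.465 FPKM in KO and 3.67 ± 0.350 FPKM in WT. Igf1r (log2 0.18) and Kit (0.24) had the smallest p on the higher side.

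Within the relay itself, 31 of 31 genes were tested, and the median log2 difference was 0.05. At an unadjusted p under 0.05, 6 were higher and 1 lower, against 8.36% and 6.85% of all tested genes. Mapk3, which encodes ERK1, measured 87.6, 99.8 and 79.7 FPKM in KO libraries and 70.5, 71.2 and 61.5 FPKM in WT libraries (log2 0.39 ± 0.11 SE, limma adjusted p = 0.220). The adaptor gene Grb2 had a log2 difference of 0.30, and Gab1, a docking protein gene, measured 7.03, 6.14 and 7.83 FPKM in KO libraries and 8.77, 9.73 and 10.5 FPKM in WT libraries. Sos1 (-0.19) and Nf1 (-0.14) also lay lower in each KO library than in any WT library.

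Downstream of ERK, 20 of 20 genes were tested, with a median log2 difference of 0.17. At an unadjusted p under 0.05, 6 were higher and 0 lower, against 8.36% and 6.85% of all tested genes. Ets2, an ETS factor activated by ERK, measured 17.8, 20.8 and 19.6 FPKM in KO libraries and 14.4, 12.1 and 12.8 FPKM in WT libraries (log2 0.55 ± 0.09 SE, limma adjusted p = 0.186). Erf, an ETS repressor that ERK drives out of the nucleus, measured 13.2, 16.9 and 15.2 FPKM in KO and 11.1, 9.40 and 10.7 FPKM in WT libraries (log2 0.51, limma adjusted p = 0.200). Mknk2, a kinase gene for translation control, had a log2 difference of 0.29, and Ets1 (-0.27) lay on the lower side without overlap. Of the listed genes that ERK and activity induce, 24 of 25 were tested, and the median was 0.34. In this list 12 were higher and 0 lower at an unadjusted p under 0.05, against 8.36% and 6.85% of all tested genes. Btg2, an antiproliferative immediate early gene, measured 5.38 ± 0.262 FPKM in KO and 3.83 ± 0.550 FPKM in WT, whereas Fos itself measured 2.71, 2.96 and 2.54 FPKM in KO libraries and 1.82, 2.93 and 3.40 FPKM in WT libraries. The parallel JNK and p38 cascades had 19 tested genes of 20 and a median of 0.06. Here 2 were higher and 1 lower at an unadjusted p under 0.05, against the same 8.36% and 6.85% of all tested genes. Map2k7, an activator of JNK, had a log2 difference of 0.27, Map3k5 one of 0.32, and Map3k7 one of -0.17.

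**Figure D4:**
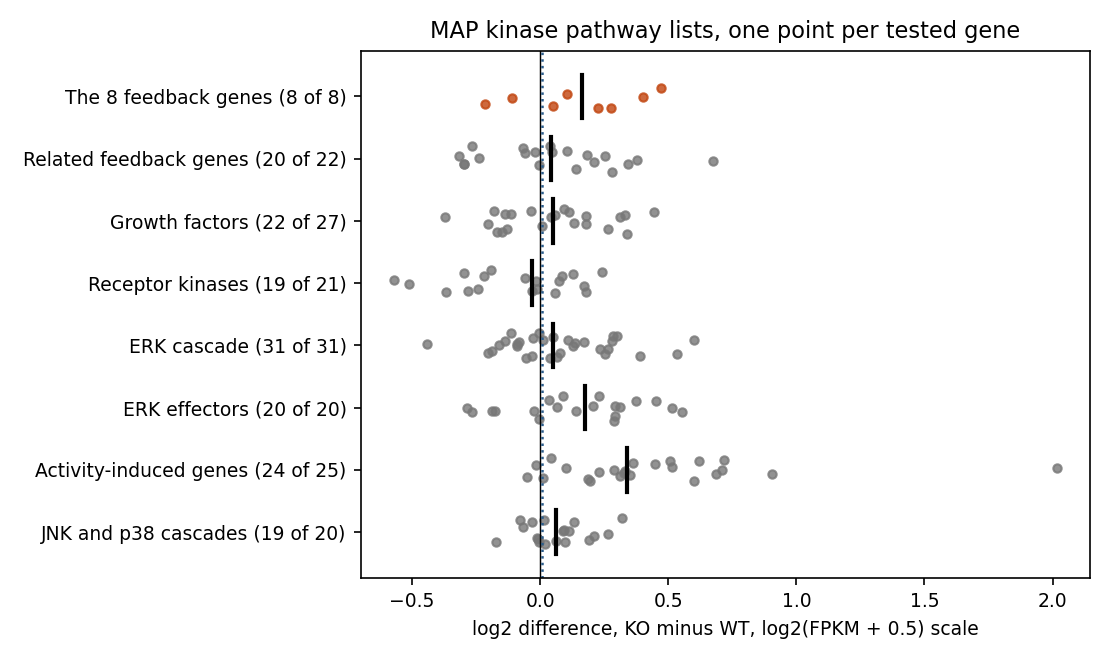
Log2 difference, KO minus WT, of log2(FPKM + 0.5) for each tested gene of the 8 feedback genes (red) and 7 related lists (grey), with the number tested of the number listed on the left; vertical spread within a row has no meaning. Black bars mark list medians, and the dotted blue line marks the median of all tested genes. Medians run from -0.03 for receptor kinases to 0.34 for activity-induced genes, with the 8 feedback genes at 0.17.

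The 8 genes did not all share a profile across libraries. Dusp1, Dusp6 and Spry2 were highest in KO replicate 2, Dusp5 and Etv5 in KO replicate 1, and Dusp4, Spry4 and Trib1 in WT replicate 3. Dusp1, Dusp5 and Etv5 were lowest in WT replicate 2, and Dusp4 and Spry4 in KO replicate 2. Spry2 was lowest in WT replicate 3, Dusp6 in KO replicate 3 and Trib1 in WT replicate 1. Markers of cell types also differed among these libraries. The 12 excitatory neuron markers summed to 273, 485 and 252 FPKM in KO replicates 1 to 3 and to 163 to 194 FPKM in WT libraries, led by Camk2a and Lmo3, and 0 of the 12 were at 0 in any library. The 12 medium spiny neuron markers, led by Penk and Ppp1r1b, summed to 1491, 1804 and 1251 FPKM in KO libraries and to 882 to 1187 FPKM in WT libraries, again with 0 at 0. The 12 oligodendrocyte markers, led by Mbp, summed to 932 to 1387 FPKM in KO and to 1524 to 2017 FPKM in WT libraries, with 0 at 0. The 12 astrocyte markers summed to 716 to 824 FPKM in KO and to 725 to 775 FPKM in WT libraries, which overlapped. The 10 oligodendrocyte precursor markers were all on the lower side, 4 of them at an unadjusted p under 0.05, and summed to 133 to 197 FPKM in KO and to 199 to 246 FPKM in WT libraries. Of the 12 microglia markers 11 were on the lower side, 6 of them at an unadjusted p under 0.05. Of all tested genes, 6.85% were lower at that p. The microglia sums overlapped, at 260 to 335 FPKM in KO and 315 to 349 FPKM in WT libraries, while the mean of log2(FPKM + 0.5) over that list did not, at 3.90 to 4.07 in KO and 4.18 to 4.31 in WT libraries. The 10 GABAergic interneuron markers likewise overlapped in sum, at 782 to 897 FPKM in KO and 678 to 799 FPKM in WT libraries. Their mean log2 was separate, at 5.21 to 5.27 in KO and 5.01 to 5.15 in WT libraries. That list was mixed in direction: 6 genes were on the higher side and 4 on the lower, with 2 on each side not overlapping. Without overlap, 11.8% of all tested genes were higher and 10.8% lower. Npy had the highest log2 difference of the interneuron list, at 0.94, while Gad2 and Lhx6 lay lower without overlap, at -0.20 and -0.25. None of these marker genes passed the adjusted test. Excitatory and medium spiny neuron markers were highest in KO replicate 2, as were Dusp1 and Spry2. Dusp6 was nearly level in KO replicates 2 and 1, at 8.52 and 8.49 FPKM. WT replicate 2, where Dusp1, Dusp5 and Etv5 were lowest, was also lowest for medium spiny neuron markers, with a mean log2 deviation of -0.49. The same library was highest for oligodendrocyte markers, at 0.51. Excitatory neuron markers were instead lowest in WT replicate 3, at -0.59. The part of any marker list in the values of the 8 genes was not tested.

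**Figure D5:**
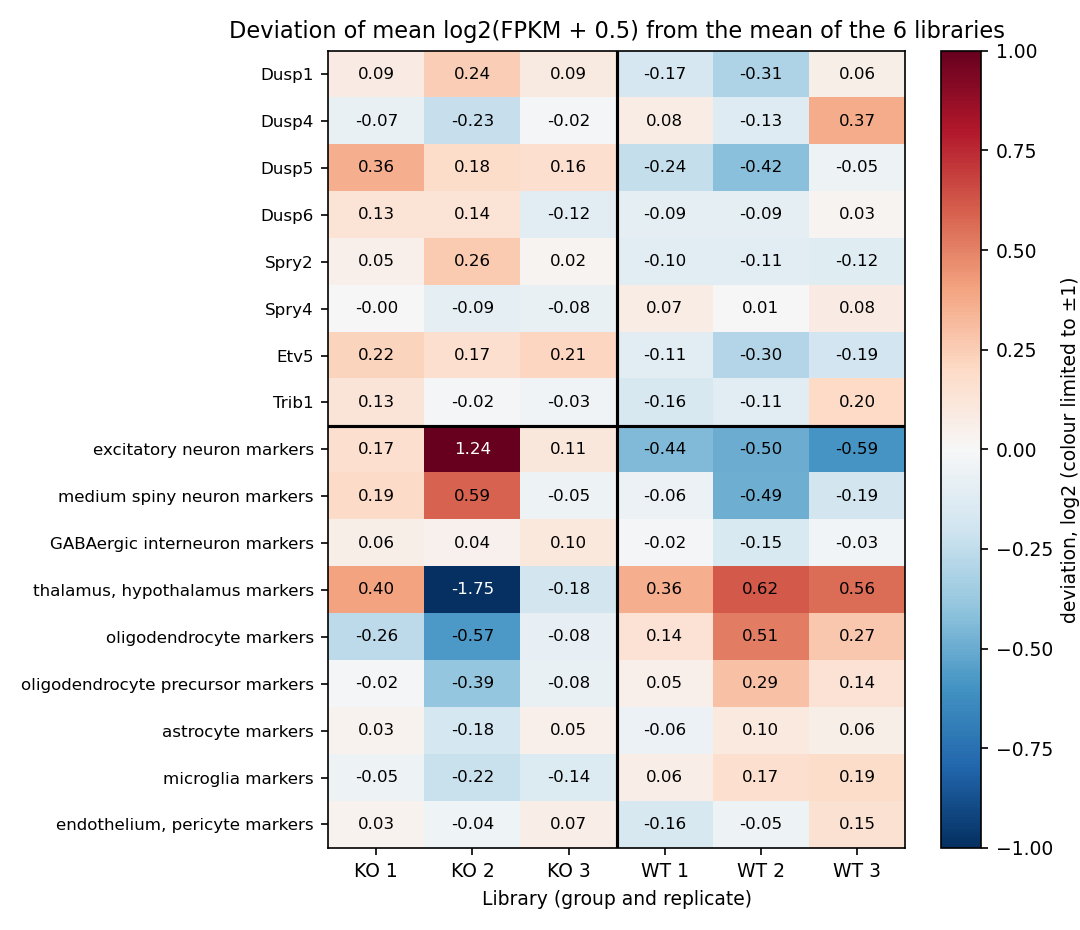
Deviation of log2(FPKM + 0.5) from the mean of the 6 libraries, for each of the 8 genes (above the line) and for the mean of 9 marker lists (below it), with KO libraries on the left and WT libraries on the right. Red is above and blue below the mean, and the number in each cell is the deviation in log2 units. Etv5 is positive in the 3 KO libraries at 0.22, 0.17 and 0.21, while KO replicate 2 reaches 1.24 for excitatory neuron markers and -1.75 for thalamic and hypothalamic markers.

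Genes with the most similar profiles were sought among 12263 named genes of at least 1 FPKM, by the root mean square difference of centred log2 values over the 6 libraries. For Etv5 the nearest were Msra and Matn2, at differences of 0.03 and 0.04. For Dusp5 they were Wfs1 and Cln6, both at 0.07. For Dusp1 they were Fscn1 and Cdipt, both at 0.04, and for Spry2 Chmp2b and Filip1l, both at 0.02. None of the 8 genes was the nearest or second nearest of another. The differences are given as a description of these libraries.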

How the data were processed

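The authors deposited 1 table of FPKM values, 1 column per library, with gene coordinates and lengths, and 0 value columns had no matching sample. The build was GRCm38, also written mm10, per the submitters' processing notes. The aligner, counter, annotation release and use of strand were not given in the sources used here. Libraries came from a SMARTER mRNA kit, per the labels' protocols. FPKM times gene length fell on whole multiples of 1 step per library (100% of nonzero values within 0.01), which gave the reads. Mitochondrial reads took 3.42% to 8.14%. Genes averaging 0.5 FPKM or more were tested with limma-trend and robust empirical Bayes (limma 3.58.1, R 4.3.3) on log2(FPKM + 0.5), which understates the change of low genes, with Benjamini-Hochberg adjustment. The fit was tested on simulated data. The samples are numbered mice, and p-values measure only the spread between these samples. Exact permutation of 3 against 3 samples cannot go below p = 0.1. Named genes were the 8, Cntnap4, the 3 smallest p per direction in each pathway list, the 2 most abundant markers per marker list and the 2 nearest profiles per gene; Slc17a7, Xist, Dusp3, Dusp7, Dusp10, Spry1, Spry3, Spred1 and Fos were added after their values were seen. The 8 genes and all lists were chosen with earlier results of these data known. Some genes that this rule takes are not reported here.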

Additional observations from a re-analysis of the deposited data

How the results depend on the processing

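The median log2 difference of the 8 genes lay between 0.11 and 0.23 over 17 alternative settings, against 0.17 as reported, and was 0.25 under a filter at 5 FPKM, which tested 4 of the 8. Of 140 values for single genes under those settings, 138 kept their sign, and the 2 that turned were both Trib1, at -0.0020 without KO replicate 1 and -0.016 without WT replicate 1; its range with 1 library left out was -0.016 to 0.16. No setting brought any of the 8 past the adjusted threshold, and the lowest adjusted p was 0.106, for Etv5 with array quality weights. Over all genes 2 passed as reported, 0 passed with a pseudocount of 0.1, no filter, a filter at 5 FPKM, the replicate number as a block (replicate block) or voom on recovered reads, 1 passed under quantile normalization and 5 after rescaling to an equal FPKM sum. Leaving out 1 library at a time gave 0 to 9 genes, with 9 without KO replicate 1. The number of the 8 genes whose groups did not overlap was 5 as reported, 3 after rescaling to an equal FPKM sum, 4 under quantile normalization, 4 under voom, and 5 to 6 with 1 library left out. Over all genes, 11.8% were higher and 10.8% lower without overlap as reported. With 1 library left out, 15.1% to 18.8% were higher and 13.9% to 17.5% lower. The shares higher and lower without overlap were 6.07% and 13.9% after rescaling to an equal FPKM sum. They were 9.92% and 12.3% under quantile normalization, and 8.42% and 14.4% under voom. Under voom 6.18% of all genes were higher and 10.2% lower at an unadjusted p under 0.05, against 8.36% and 6.85% as reported. Of the 8, Dusp5 and Etv5 were higher at that p under voom. The same 2 were with the replicate block, where 5.66% of all genes were higher. By voom the median log2 difference was 0.13 over the 8 genes and -0.04 over all tested genes. The deviations of same-numbered KO and WT libraries correlated at -0.09, -0.14 and -0.07, and no KO library correlated best with its own number. These weak correlations cannot settle whether same-numbered samples were handled together. Rescaling to reads outside mitochondrial genes was added after seeing the data and kept the same 5 genes without overlap. Depth limits Dusp5 most, where 70 to 142 reads give half-widths of 16.8% to 24.2%. The causes were not tested.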

Other observations

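A few transcripts of the listed pathway genes were uneven among the KO libraries, and they were chosen after their values were seen. Ntf3, the neurotrophin-3 gene, was below the level tested and measured 0.0931, 1.32 and 0.296 FPKM in KO replicates 1 to 3, on 3, 41 and 9 reads, against 0.221, 0.0973 and 0.295 FPKM in WT replicates 1 to 3, on 7, 3 and 11 reads. Hbegf, the gene of an inducible ligand of the epidermal growth factor receptor, measured 7.10, 14.3 and 6.56 FPKM in KO libraries and 5.66, 5.55 and 7.93 FPKM in WT libraries. Both were highest in KO replicate 2. Maff, a small Maf factor gene, measured 3.36, 0.980 and 2.13 FPKM in KO libraries and 0.710, 0.686 and 1.10 FPKM in WT libraries. KO replicate 1 was the highest, and KO replicate 3 was also above all WT libraries.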
